A study of Mus musculus with 6 samples.

Results

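These data cover 10 chains of the receptors for the interleukins IL-6, IL-10, IL-12, IL-18 and IL-1 and for the interferons, read in sorted regulatory T (Treg) cells on arrays labelled Gata3-sufficient or Gata3-deficient. The genes are Il6ra, Il6st, Il10ra, Il10rb, Il12rb1, Il12rb2, Ifngr1, Ifnar1, Il18r1 and Il1r2. They were taken by gene name, and all 10 were among the 12394 genes compared. Together they have 15 probe sets annotated to exactly 1 gene, where a probe set is a group of short probes on the array that read 1 transcript. Il6ra has 2 probe sets, Il6st and Il10ra have 3 each, and the other 7 genes have 1. Each gene was read by its probe set of highest mean. Values are listed in the order of replicates 1, 2 and 3.

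The mouse cells were sorted as CD4+CD25+YFP+ from spleen and lymph nodes, and both groups carried the YFP-Cre recombinase of the Foxp3 locus, which acts in cells that have expressed Foxp3. The 3 arrays called Gata3-deficient here came from Gata3F/FFoxp3YFP-Cre mice. The 3 called Gata3-sufficient, titled WT by the submitters, came from Gata3F/+Foxp3YFP-Cre mice, which themselves carry 1 floxed Gata3 allele. No treatment, time point or age is given. Values are log2 intensities, in which a step of 1 is a doubling, with array medians from 6.06 to 6.11. With so few arrays every value has limited precision. The Gata3 probe set read 1.28-fold higher in the deficient group, against its label and with no overlap (9.84 ± 0.14 against 9.48 ± 0.08, SD, n = 3 each, log2 change 0.35 ± 0.07, SE, limma adjusted p = 0.0387). Each direction given here therefore rests on the labels. Deficient replicate 1 lay apart from the other deficient arrays on the second principal component. It was also further out on the first, which held 35.2% of the variance, at 13.74 against 5.33 and 6.30 for deficient replicates 2 and 3. The T cell genes Cd3d and Ctla4 were bright, at means of 12.83 and 11.86 in the sufficient group, while Foxp3 was read by a dim probe set, at 3.90 and 3.94 in the sufficient and deficient groups. The series' text gives 3 mice per group without tying an array to a mouse, so p-values measure the spread between these arrays.

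Cytokine receptors are assembled from at least a pair of chains, of which one often sets the ligand and the other carries the signal or is shared with further receptors. The chains for IL-6, IL-10, IL-12 and the interferons signal through Janus kinases and STAT transcription factors, and those for IL-1 and IL-18 through the adaptor Myd88. In Treg cells these receptors are known for letting inflammatory signals tune suppression, expansion and stability of the lineage.

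Promoter sequence was available from RefSeq (build GRCm38.p6) for 7 of the 10 genes, in 9 windows of 250 bases before a transcription start. Each was searched on both strands for the GATA factor motif, which is GATA with A or T before it and A or G after it, and for TTCNNNGAA, the spaced palindrome that STAT factors bind. The windows of 3 genes are shown because Ifnar1 was the chain past the test threshold, Il1r2 had the largest difference, and Il18r1 held a repeated match. Capitals mark the matches.

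Ifnar1, chr16:91484965-91485214, plus strand: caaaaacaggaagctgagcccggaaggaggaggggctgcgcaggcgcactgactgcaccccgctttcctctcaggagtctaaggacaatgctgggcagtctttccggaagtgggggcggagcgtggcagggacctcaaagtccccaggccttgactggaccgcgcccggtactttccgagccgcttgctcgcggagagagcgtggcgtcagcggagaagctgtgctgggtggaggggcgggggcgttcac

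Il1r2, chr1:40085843-40086092, plus strand: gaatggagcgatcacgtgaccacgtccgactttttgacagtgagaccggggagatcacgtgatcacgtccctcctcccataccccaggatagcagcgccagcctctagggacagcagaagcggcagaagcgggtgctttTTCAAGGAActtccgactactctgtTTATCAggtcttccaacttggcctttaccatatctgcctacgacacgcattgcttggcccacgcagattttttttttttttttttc

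Il18r1, chr1:40465756-40466005, plus strand: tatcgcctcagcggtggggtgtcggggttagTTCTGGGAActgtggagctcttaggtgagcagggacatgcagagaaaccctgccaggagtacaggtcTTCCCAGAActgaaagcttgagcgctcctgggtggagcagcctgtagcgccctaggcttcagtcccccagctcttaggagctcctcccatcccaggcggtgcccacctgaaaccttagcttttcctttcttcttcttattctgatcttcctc

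The Il1r2 window held 1 GATA motif, read as TTATCA on the strand shown and starting 86 bases before the transcription start, and 1 TTCNNNGAA match starting 111 bases before it. Those 2 matches do not overlap. Il6ra was the other of 2 genes with a GATA motif, each in 1 of the 9 windows, and 26.5% of the 32841 windows of all genes held one. Among the 9 windows, TTCNNNGAA was in 1 each of Il1r2, Il12rb2 and Il18r1, against 7.02% of all windows. Il18r1 has 3 annotated starts, and the 2 matches lay before 1 of them, starting at 219 and 152 bases from it. The Ifnar1 window held neither motif, and neither did those of Il6st and Ifngr1. Such matches describe letters only.

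The question was which chains differ between the arrays of the 2 labels. Ifnar1, the chain of the type I interferon receptor that binds the kinase Tyk2, was lower in the deficient arrays and was the single chain of the 10 past the threshold. Il1r2, the decoy receptor for IL-1, differed most in size, at 1.67-fold higher, and lay just outside the threshold. Il6st, the signalling chain gp130 of the IL-6 receptor, and Il18r1, the ligand-binding chain of the IL-18 receptor, read 1.17-fold and 1.18-fold higher and did not pass. The Il6st value is that of its brightest probe set, which its other probe sets did not follow. The other 6 chains differed by at most 1.13-fold.

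By limma's moderated test over all genes with Benjamini-Hochberg adjustment, 0 chains rose and 1 fell, against 1.44% of all genes higher, 0.766% lower and 2.21% in either direction. At an unadjusted p under 0.05 there were 3 higher chains (Il6st, Il18r1 and Il1r2) and 1 lower (Ifnar1), where 14.4% of all genes passed. At an adjusted p under 0.1 there were 3 chains (Ifnar1, Il1r2 and Il6st), where 4.24% of all genes passed. In 6 of the 10 chains the groups did not overlap, 3 higher (Il6st, Il10rb and Il1r2) and 3 lower (Il6ra, Il12rb2 and Ifnar1). Over all genes 19.8% did not overlap, 11.3% higher and 8.51% lower. The chains went both ways, 5 with a positive and 5 with a negative change, and their median log2 change was 0.05, beside 0.01 over all genes. Leaving sign aside, the median size was 0.16 for the chains and 0.08 for all genes.

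**Figure D1:**
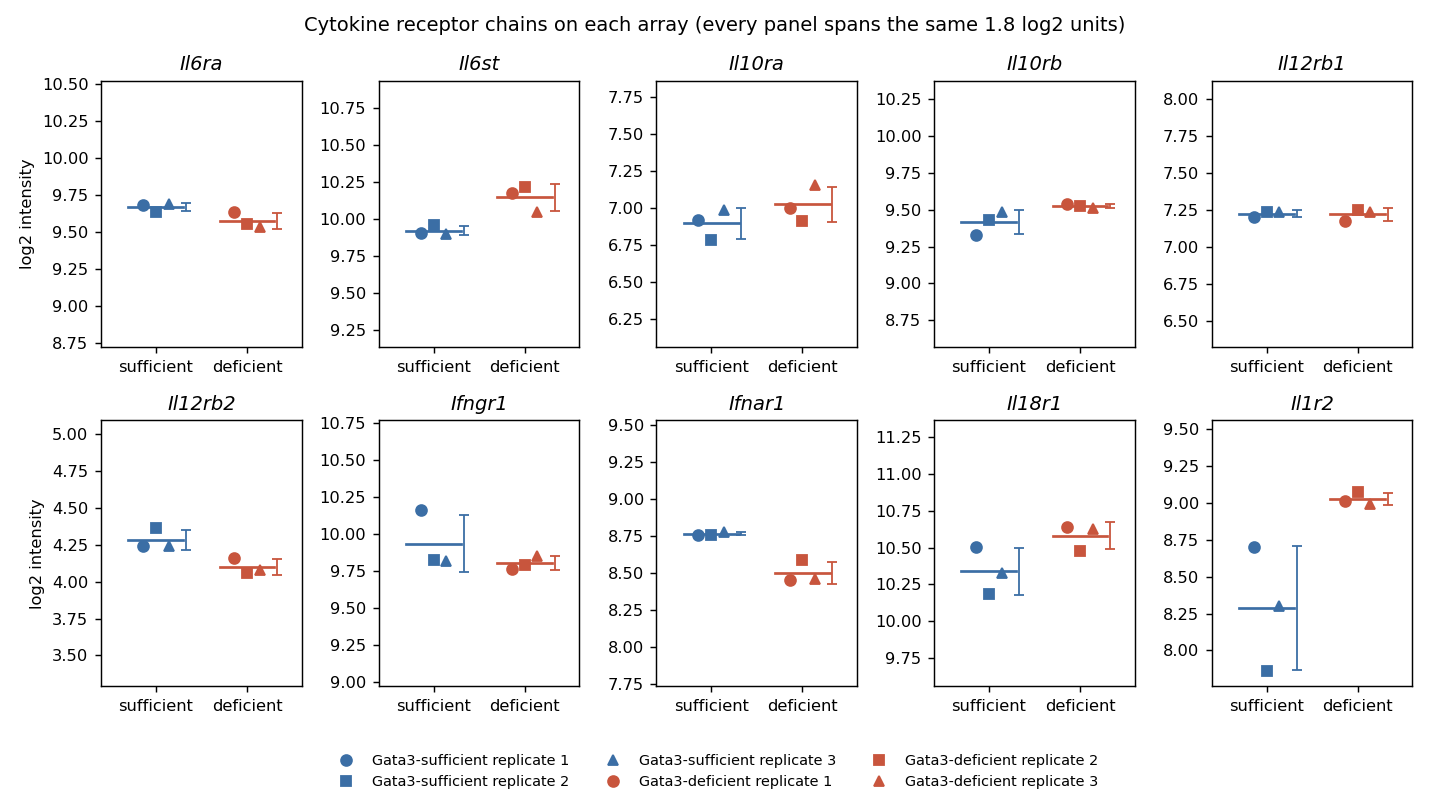
Log2 intensity of the 10 receptor chains on each array, with the mean (line) and SD (bar) of the 3 arrays of a group (blue for Gata3-sufficient, red for Gata3-deficient). Ifnar1 is lower on every deficient array, and Il1r2 and Il6st, the latter on its brightest probe set only, are higher. The Il1r2 values spread from 7.86 to 8.70 in the sufficient group and from 8.99 to 9.07 in the deficient group.

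The type I interferon receptor pairs Ifnar1 with Ifnar2, and its signal runs through Tyk2 and Jak1. Ifnar1 read 8.76, 8.76 and 8.78 in the sufficient arrays and 8.45, 8.59 and 8.46 in the deficient arrays. The sufficient arrays were nearly equal, and every deficient array lay below all of them. The means of 8.76 ± 0.01 and 8.50 ± 0.08 (SD, n = 3 each) differ by 1.20-fold (log2 change -0.27 ± 0.05, SE, limma adjusted p = 0.0398). The call was lost without limma's intensity trend (adjusted p = 0.14) and in all 6 fits that left out 1 array. Those fits gave log2 changes from -0.31 to -0.24 and adjusted p from 0.0697 to 0.168.

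Ifnar2, the partner that binds Jak1, read the other way on its brighter probe set. It was at 8.91, 8.80 and 8.83 in the sufficient and 9.03, 9.10 and 8.96 in the deficient arrays, and the groups did not overlap (log2 change 0.18 ± 0.06, SE, limma adjusted p = 0.151). The second Ifnar2 probe set had a log2 change of -0.06 and overlapping groups. The ratio of the 2 chains within an array, on the log2 scale, was therefore set side by side, a comparison chosen after the values were seen. Ifnar2 over Ifnar1 was 0.15, 0.04 and 0.06 in the sufficient and 0.58, 0.52 and 0.50 in the deficient arrays. This ratio shifted by 0.45 with the brighter Ifnar2 probe set and by 0.21 with the second, without overlap in either case. Each had an exact two-sided permutation p = 0.1, the smallest that 3 arrays against 3 allow. The ratio restates the values that prompted it and gives no absolute level.

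Ifngr1, the ligand-binding chain of the interferon gamma receptor, showed no detectable difference. It read 10.16, 9.83 and 9.82 in the sufficient and 9.76, 9.79 and 9.85 in the deficient arrays. Sufficient replicate 1 stood above the other 5 arrays, which lay within a narrow band, and the groups overlapped. The log2 change was -0.13 ± 0.08 (SE, limma adjusted p = 0.537), with a 95% interval from -0.32 to 0.05. Without sufficient replicate 1 it was -0.02. Its partner Ifngr2, which brings Jak2, had a log2 change of -0.06 (limma adjusted p = 0.819), and both of its probe sets overlapped between groups.

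The IL-6 receptor joins Il6ra, which binds IL-6, to Il6st, which is shared by the whole gp130 family. Il6ra read 9.68, 9.64 and 9.69 in the sufficient and 9.63, 9.55 and 9.53 in the deficient arrays. The groups touched without overlapping, since deficient replicate 1 lay just under sufficient replicate 2. The log2 change of Il6ra was -0.10 ± 0.05 (SE, limma adjusted p = 0.394), and its second probe set gave the same -0.10 with overlapping groups.

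Il6st read 9.91, 9.96 and 9.90 in the sufficient and 10.17, 10.22 and 10.05 in the deficient arrays on its brightest probe set. All deficient arrays were above all sufficient ones (log2 change 0.22 ± 0.05, SE, limma adjusted p = 0.0643). The other probe sets of Il6st did not move with it. The second had a log2 change of 0.03 and overlapping groups, and the third read lower without overlap, at 5.73, 5.78 and 5.71 against 5.55, 5.69 and 5.52 (log2 change -0.15 ± 0.09, SE). The third was the faintest, at a mean of 5.66, close to the 40th percentile of gene means, 5.55. Averaging the 3 probe sets with equal weight gave 0.03 (limma adjusted p = 0.886). Both the size and the direction of the Il6st difference therefore rest on 1 probe set. The log2 ratio of the first to the third probe set was 4.18, 4.18 and 4.19 in the sufficient and 4.63, 4.53 and 4.52 in the deficient arrays. The place of these probe sets in the transcript was not analysed here, and none of the other 5 probe sets of the chains passed in the fit over all 20393 probe sets, where 1.69% did.

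**Figure D2:**
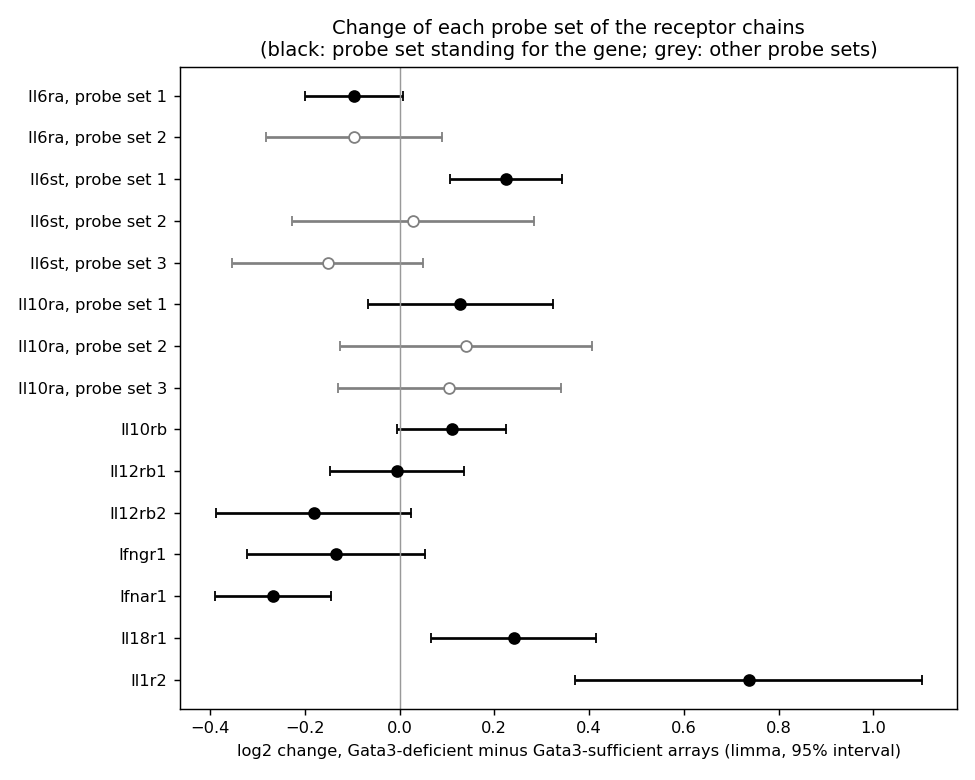
Log2 change of each of the 15 probe sets, deficient minus sufficient arrays, with limma's 95% interval (black, probe set standing for the gene, from the fit over genes; grey, other probe sets, from the fit over probe sets). The intervals of Il6st probe set 1, Il18r1 and Il1r2 lie above 0 and that of Ifnar1 below 0, while the 3 probe sets of Il6st spread from -0.15 to 0.22.

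The IL-10 receptor pairs Il10ra, which binds the cytokine that restrains inflammation, with Il10rb, shared with the IL-22 receptor family. Il10ra read 6.92, 6.78 and 6.98 in the sufficient and 7.001, 6.91 and 7.15 in the deficient arrays, with overlap (log2 change 0.13 ± 0.09, SE, limma adjusted p = 0.578). The change was 0.064 without deficient replicate 3 and 0.072 without sufficient replicate 2. Its other probe sets, both dim, gave 0.14 and 0.11. Il10rb read 9.33, 9.43 and 9.48 in the sufficient and 9.54, 9.52 and 9.51 in the deficient arrays. The deficient arrays were close together and just above sufficient replicate 3 (log2 change 0.11 ± 0.05, SE, limma adjusted p = 0.371). The ratio of these chains within an array did not separate the groups (shift -0.02, exact two-sided permutation p = 0.8).

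Il12rb1 and Il12rb2 form the IL-12 receptor, which activates Stat4, and Il12rb1 also serves IL-23. Il12rb1 was the most even of the 10 chains, at 7.20, 7.24 and 7.24 in the sufficient and 7.17, 7.25 and 7.24 in the deficient arrays. Its log2 change was -0.01, with a 95% interval from -0.15 to 0.14 (limma adjusted p = 0.982), and the sign turned with renewed quantile normalization and with array quality weights. Il12rb2, the signalling chain, was the 1 dim chain, with a mean below the 40th percentile of all genes, 5.55. It read 4.24, 4.36 and 4.24 in the sufficient and 4.16, 4.06 and 4.08 in the deficient arrays, lower without overlap but not past the threshold (log2 change -0.18 ± 0.09, SE, limma adjusted p = 0.415).

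Il18r1 binds IL-18 and signals once Il18rap has joined it. Il18r1 was at 10.50, 10.19 and 10.33 in the sufficient and 10.64, 10.48 and 10.62 in the deficient arrays. Sufficient replicate 1 reached above deficient replicate 2, so the groups overlapped (log2 change 0.24 ± 0.08, SE, limma adjusted p = 0.167). Without sufficient replicate 1 the change was 0.32 and passed (adjusted p = 0.0421), and without sufficient replicate 2 it was 0.16 (adjusted p = 0.476). Il18rap read 6.40, 6.28 and 6.10 against 5.93, 6.13 and 6.11 in replicates 1, 2 and 3 (log2 change -0.21 ± 0.10, SE, limma adjusted p = 0.409). Il18rap over Il18r1 within an array was lower on every deficient array, with a shift of -0.45 (exact two-sided permutation p = 0.1).

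Il1r2 binds IL-1 without signalling and so competes with Il1r1, the signalling receptor. It was at 8.70, 7.86 and 8.30 in the sufficient and 9.01, 9.07 and 8.99 in the deficient arrays. The sufficient arrays were spread over a wide range and the deficient ones were nearly equal, with no overlap. The means of 8.29 ± 0.42 and 9.03 ± 0.04 (SD, n = 3 each) gave a log2 change of 0.74 ± 0.16 (SE, limma adjusted p = 0.0525), with a 95% interval from 0.37 to 1.10. The change was 0.94 and passed without sufficient replicate 1 (adjusted p = 0.00445), and it was 0.52 without sufficient replicate 2 (adjusted p = 0.101). It passed in none of the other 5 fits with 1 array left out (limma adjusted p from 0.101 to 0.168). With median centring it passed as well (adjusted p = 0.0432), as it did with dim genes left out (0.0482) and with array quality weights (0.0129). It did not pass without the intensity trend (0.166), with probe sets averaged over all genes (0.0699) or with renewed quantile normalization (0.0518).

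Il1r1 itself read 6.37, 6.12 and 6.00 in the sufficient and 6.51, 6.31 and 6.63 in the deficient arrays, with overlap (log2 change 0.32 ± 0.12, SE, limma adjusted p = 0.245). Il1r2 over Il1r1 shifted by 0.42 without overlap, although the margin between sufficient replicate 1, at 2.33, and deficient replicate 3, at 2.36, was small (exact two-sided permutation p = 0.1). Il1rap, the accessory chain that Il1r1 needs, had a log2 change of 0.02 on its brightest probe set, and its other probe sets, both dim, gave -0.14 and -0.43. The dimmest, at -0.43, was lower without overlap but did not pass in the fit over all probe sets (limma adjusted p = 0.164).

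Markers of other cell types, which the CD4+CD25+YFP+ sort should remove, were read beside these values. All 10 measured neutrophil markers were dim, 9 of them with a positive and 1 with a negative change, and 0 passed (2 at an unadjusted p under 0.05, limma). The largest changes among them were those of S100a9 (log2 change 1.10) and Ngp (0.74), both higher without overlap. The summed intensity of the 10 neutrophil markers, on the linear scale, ran from 270.4 to 291 in the sufficient and from 299 to 458 in the deficient arrays. The sum over 11 myeloid and dendritic cell markers was 352 to 401 in the sufficient and 400.0 to 537 in deficient arrays. Of these markers 7 had a positive and 4 a negative change. The largest was that of Lyz2, which was not dim, at 1.02 without overlap (limma adjusted p = 0.0849). B cell markers summed to 284 to 303 against 296 to 312, NK cell markers to 252 to 311 against 227 to 279, CD8 T cell markers to 115 to 140.4 against 126 to 133, and erythroid markers to 44.9 to 52.3 against 44.8 to 49.0. The T cell and Treg markers summed to 17344 to 18910.4 against 18947 to 19556, and all 9 of them had a positive change. Positive and negative changes numbered 4 and 3 for B cell, 2 and 2 for NK cell, 2 and 0 for CD8 T cell and 0 and 2 for erythroid markers. In limma 0 genes of these lists passed the adjusted threshold. At an unadjusted p under 0.05 there were 10, a larger share of the measured markers than the 14.4% of all genes. Higher at that cut were 4 of 9 T cell and Treg markers and 2 of 10 neutrophil markers. Also higher was 1 each of 11 myeloid and dendritic, 7 B cell and 4 NK cell markers, and 1 NK cell marker was lower. The 2 CD8 T cell and 2 erythroid markers held 0 at that cut. In sorted cells measured in bulk, fewer cells of a type and less RNA per cell cannot be told apart, and the part of these cells in the Il1r2 difference was not tested.

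**Figure D3:**
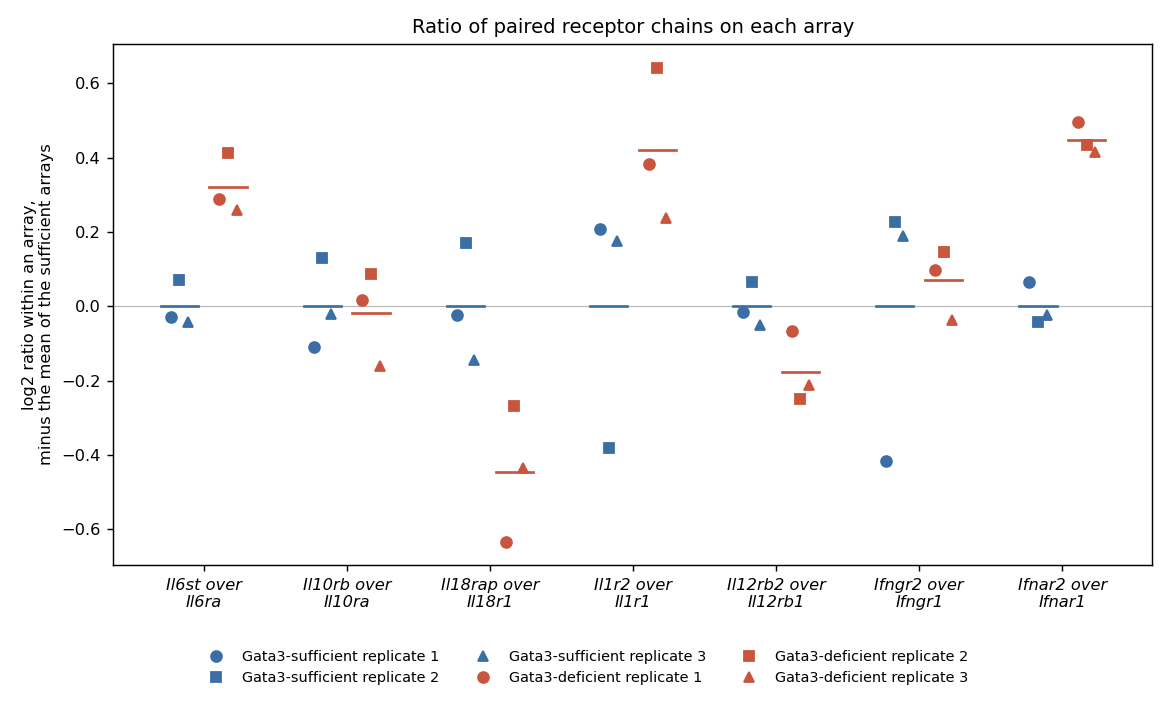
Log2 ratio of paired receptor chains within each array, minus the mean of the sufficient arrays (blue for Gata3-sufficient, red for Gata3-deficient, lines for means). Each chain is read by its brightest probe set, which the other Il6st probe sets did not follow. Ifnar2 over Ifnar1 and Il6st over Il6ra are higher on every deficient array, by 0.45 and 0.32 on average. Il10rb over Il10ra and Ifngr2 over Ifngr1 overlap.

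In all 7 such pairs were compared. Il6st over Il6ra was 0.23, 0.32 and 0.21 in the sufficient and 0.54, 0.67 and 0.51 in the deficient arrays. That shift of 0.32 did not overlap (exact two-sided permutation p = 0.1) and was, like the Il6st difference, read on the brightest Il6st probe set. Il12rb2 over Il12rb1 shifted by -0.18 without overlap, and Ifngr2 over Ifngr1 by 0.07 with overlap. After Benjamini-Hochberg adjustment over the 7 pairs the smallest exact permutation p was 0.14, and with 3 arrays per group no pair could pass at 0.05.

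Around the receptors, 89 of 107 listed genes of the same pathways were measured, and 4 rose and 3 fell over all genes tested, or 7.87% of them against 2.21% of all genes. The lists were drawn up with earlier results of these data known, so this share is not independent evidence. Among 11 ligands 1 rose and 1 fell. Il18, the ligand of Il18r1, rose 1.56-fold, from 6.08, 5.86 and 5.59 in the sufficient to 6.36, 6.41 and 6.70 in the deficient arrays, with no overlap (log2 change 0.64 ± 0.14, SE, limma adjusted p = 0.0448). The Il18 call was lost when any array but sufficient replicate 1 was left out (limma adjusted p from 0.0588 to 0.182), without the intensity trend (0.123) and with probe sets averaged (0.0536).

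Ifng, the ligand of the interferon gamma receptor, read 7.85, 7.81 and 7.54 in the sufficient and 6.40, 7.02 and 6.84 in the deficient arrays. Its log2 intensity fell by 0.98, a call lost without sufficient replicate 2 (limma adjusted p = 0.0736) and without the intensity trend (0.0674). Il6 was dim, at 3.31, 3.26 and 3.37 against 3.56, 3.72 and 3.75, higher without overlap but not past the threshold (log2 change 0.37, limma adjusted p = 0.0765). Il10 (-0.15) and Il1b (0.12) did not pass either.

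Janus kinases and STATs sit directly below the chains that lack kinase activity of their own. Of 7 measured genes 1 fell, and 6 had a negative change. Jak1, used by the interferon, IL-6 and IL-10 receptors, read 11.44, 11.50 and 11.49 in the sufficient and 11.29, 11.27 and 11.15 in the deficient arrays. Every deficient array lay below the sufficient ones (log2 change -0.24 ± 0.05, SE, limma adjusted p = 0.033), and the other 2 Jak1 probe sets had changes of -0.17 and -0.25. Its call was lost without sufficient replicate 2 or 3 or deficient replicate 2 or 3 (limma adjusted p from 0.0813 to 0.159) and without the intensity trend (0.174). The gp130 family list held 6 measured chains, of which 0 passed in limma and 0 had an unadjusted p under 0.05. Osmr (0.27) and Cntfr (0.23), both dim, had the largest positive values, although Osmr was at 0.056 without deficient replicate 1, and Il27ra, the bright IL-27 receptor chain, had 0.0042.

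Among 10 feedback inhibitors and shedding proteases 1 rose. Ptpn11, the phosphatase SHP2 that docks on gp130, read 9.40, 9.22 and 9.43 in the sufficient and 9.73, 9.59 and 9.69 in the deficient arrays, without overlap (log2 change 0.32 ± 0.06, SE, limma adjusted p = 0.0377). Its second probe set gave 0.40 and its dimmest -0.02. The Ptpn11 call was lost when any array but sufficient replicate 1 was left out (limma adjusted p from 0.0508 to 0.142), without the intensity trend (0.149) and with its probe sets averaged (log2 change 0.23, adjusted p = 0.303). Of 6 measured genes of IL-1 and IL-18 signalling 0 passed in limma and 0 had an unadjusted p under 0.05, with Myd88 at 0.08 and Tollip, an inhibitor, at 0.07. The 7 measured IL-1 family chains and decoys also held 0 past the threshold and 1, Il1r1, at an unadjusted p under 0.05.

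Genes that the receptors are known to drive went different ways. Of 12 type I interferon targets 11 had a negative change, with a median of -0.25 beside the 0.01 of all genes, but 0 passed in limma and 4 were lower at an unadjusted p under 0.05, where 14.4% of all genes passed in either direction. Oasl1, an oligoadenylate synthetase-like gene, read 7.23, 7.03 and 6.67 in the sufficient and 6.45, 6.61 and 6.15 in the deficient arrays (log2 change -0.57, limma adjusted p = 0.0974). Usp18, which restrains signalling at Ifnar2, had -0.44 (adjusted p = 0.106). Oasl1 passed without sufficient replicate 3 (adjusted p = 0.0476), and Usp18 passed without deficient replicate 1 (0.0443) and with array quality weights (0.0259). The summed intensity of these targets overlapped between groups, at 4350.1 to 5776 in the sufficient and 3671 to 4623 in deficient arrays. Sufficient replicate 1 had the highest sum, and the other sufficient arrays were at 4350.1 and 4568.

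Of 12 interferon gamma targets 1 rose, with a median of 0.09. Cxcl10, a chemokine, rose 2.05-fold (7.89, 7.36 and 7.59 against 8.75, 8.67 and 8.52) and kept its call whichever array was left out. Of 9 IL-6 and STAT3 targets all had a positive change, from 0.0060 for Bcl3 to 0.49 for Rora. Their median of 0.08 was about the median size of change over all genes, also 0.08. Of these targets 1 passed, the nuclear receptor gene Rora (log2 change 0.49). The Rora call was lost when any array but sufficient replicate 1 was left out (limma adjusted p from 0.0588 to 0.11) and without the trend (0.114). Among 9 targets of IL-12 and IL-18, Tbx21, the gene of T-bet, fell by 0.63, a call lost without sufficient replicate 2 (limma adjusted p = 0.104) or deficient replicate 2 (0.0824) and without the trend (0.0581).

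**Figure D4:**
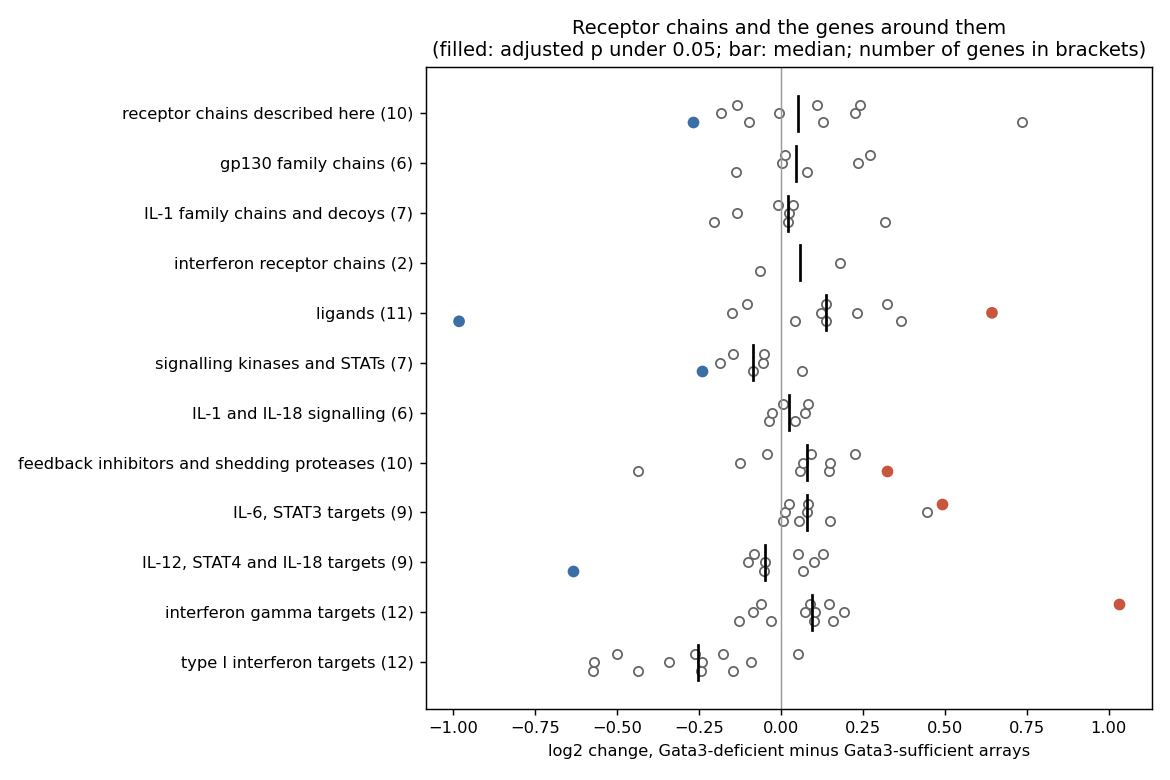
Log2 change, deficient minus sufficient arrays, of the 10 receptor chains and of each list of genes around them, 1 point per gene (filled red or blue where adjusted p is under 0.05, bars for medians). The receptor chains spread from -0.27 to 0.74 about a median of 0.05, and the type I interferon targets have the lowest median, -0.25.

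The genes with the most similar profile over the 6 arrays were sought for the 3 bright chains with the smallest p. The search covered 7326 genes that were not dim, with predicted genes and clones left out. Likeness was the root mean square difference of values after each gene's own mean was removed, in log2 units. Nearest to Ifnar1 were Cbll1 (0.02), Pcid2 (0.03) and Hace1 (0.04). Nearest to Il6st were Wdr43, Slc38a1 and Coq3, each at 0.03. Distances from Il1r2 were larger, with S100a4 (0.14), Plod2 (0.15) and Synpo (0.15) first. Values were not scaled, so genes that vary more over the arrays, as Il1r2 does, tend to have larger distances. S100a4 read 10.95, 10.53 and 10.70 in the sufficient and 11.64, 11.54 and 11.45 in the deficient arrays. In Il1r2, S100a4, Plod2 and Synpo alike, sufficient replicate 1 was the highest and replicate 2 the lowest of that group. The near genes were picked by their values on these same arrays, so a shared order follows from the choice.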

How the data were processed

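Gene expression was measured on Affymetrix arrays from 3 Gata3-sufficient and 3 Gata3-deficient samples. The deposited table holds log2 intensities, summarised by the authors with RMA (background correction, quantile normalization and probe summary), per the submitters' processing notes, with no version given. That the scale is log2 was read from the values. No scanner files were used, so background and saturation could not be read. Of 22690 probe sets, 20393 had 1 gene symbol in the platform annotation, 691 several and 1606 none; only the first kind was used, and 12370 of 12394 genes matched a gene table by Entrez identifier. No 2 arrays of a group held identical values in more than 0.373% of probe sets.

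The test was limma 3.58.1 in R 4.3.3 (lmFit, eBayes with an intensity trend, two-sided, Benjamini-Hochberg over all genes, threshold 0.05). It was tried on simulated data whose changes were all larger than that of Ifnar1. That trial does not cover changes as small as the Ifnar1 change. Dim means below the 40th percentile of gene means. Errors are SDs or limma's standard errors. Named were the chains, their direct partners and ligands, list genes past the threshold, otherwise the 2 with the smallest p in a list, and the nearest profiles. The alternatives were the replicate block, no trend, array weights, dim genes left out, renewed normalization, median centring, other probe set choices, a threshold of 0.1 and each array left out. The members and lists were chosen with earlier results of these data known. Receptor pair ratios and the comparison of probe sets were chosen after the values were seen. Python 3.11.15 and matplotlib 3.10.9 drew the figures.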

Additional observations from a re-analysis of the deposited data

How the results depend on the processing

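Over all genes, 179 rose and 95 fell. The counts were 31 and 23 without the intensity trend, 400 and 185 with array quality weights and 343 and 182 at a threshold of 0.1, and with 1 array left out they ran from 35 to 165 and from 24 to 105. Of the receptor chains 0 rose and 1 fell. The higher count became 3 with the replicate block, 2 with array quality weights and at a threshold of 0.1, and 1 with dim genes left out or median centring. It ran from 0 to 2 with 1 array left out. The lower count became 0 without the trend and was 0 in each fit with 1 array left out. Of the pathway genes 4 rose and 3 fell. The higher count became 1 without the trend, 2 when probe sets were averaged and 7 with array quality weights, and ran from 1 to 4 with 1 array left out. The lower count became 7 with the replicate block and 0 without the trend, and ran from 0 to 4 with 1 array left out. The 5 other probe sets of the chains stayed at 0 calls in every setting run.

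The replicate numbers are not stated to pair mice. The deviations of same-numbered arrays from their group means correlated at 0.04, -0.02 and 0.07. With 3 arrays per group, such values cannot decide whether the arrays were paired. Sufficient replicates 1 and 3 correlated best with the deficient array of their own number, and sufficient replicate 2 did not. With the replicate block, 234 genes rose and 134 fell over all genes. Under the replicate block the 3 higher chains were Il1r2 (adjusted p = 0.0258), Il18r1 (0.0379) and Il6st (0.0444), and Ifnar1 kept its call (0.0461, limma). The 7 lower pathway genes then included Usp18 (0.0067) and Oasl1 (0.0188), and Il18 was at 0.0598 (limma).

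Signs turned only for changes near 0, apart from Il1rap, at -0.18 with the mean of all probe sets. Il12rb1 turned to 0.0064 with array quality weights, 0.0027 with renewed quantile normalization, 0.0010 without sufficient replicate 2 and 0.018 without deficient replicate 1, and with 1 array left out it ran from -0.021 to 0.018. Il1rap also turned to -0.0044 without sufficient replicate 1 and -0.0055 without deficient replicate 3, the lowest of a range up to 0.047. Il27ra turned to -0.0033 with renewed quantile normalization, -0.013 without sufficient replicate 1 and -0.022 without deficient replicate 2, the lowest of a range up to 0.022. The causes were not tested. Intensity limits the reading of Il12rb2 and Il6, which were dim.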
